A study of Mus musculus with 15 samples.

Results

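The genes described here are those of 7 small heat shock proteins, Hspb1, Hspb2, Hspb3, Hspb6, Hspb7, Hspb8 and Cryab, and of their co-chaperone Bag3. They were taken by symbol from raw count tables of 40174 symbols, where each had 1 entry, and all 8 were among the 17588 genes that passed the filter on low counts. The tables come from total RNA libraries of left ventricles of C57BL/6 mice aged 2 months, made in a study of how mutations in Rbm20 act in cardiac remodelling. Rbm20 encodes a muscle RNA-binding protein that controls the splicing of titin and other heart transcripts. The 5 groups were wild type (WT), mice with 1 mutated copy of the S639G allele (G-line HET, genotype Rbm20 S639G +/-) or with both copies mutated (G-line HOM, which the labels write S639G -/-), and the same states of the S637A allele (A-line HET, S637A +/-, and A-line HOM, S637A -/-). Each group was labelled as 3 libraries, but replicates 2 and 3 of A-line HOM equalled WT replicates 2 and 3 in all 40174 symbols. They were used once, as WT, which left 13 distinct libraries: 3 in each group and 1 in A-line HOM. The labels do not settle which name of that pair is right, and they do not say whether libraries came from separate animals, so a p-value measures only the spread between these libraries, which may be technical. All groups carried their alleles in the whole animal, and the tissue was unsorted, so fewer cells of a type and less RNA per cell cannot be told apart.

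Small heat shock proteins share an alpha-crystallin domain and hold unfolding proteins in a soluble state without using ATP. In heart muscle they sit on the Z-disc and on the desmin filaments around it. Cryab (alpha-B-crystallin) protects desmin and titin, Hspb1 binds actin and filamin C, and Hspb6 is a target of protein kinase A in contracting muscle. Hspb7 is a heart-enriched member that binds filamin C, and Hspb2 and Hspb3 form a complex of their own in muscle. Hspb8 binds Bag3, and together with Hsp70 they hand damaged filamin to autophagosomes, a route called chaperone-assisted selective autophagy. Several of these genes are known targets of heat shock factor 1, which binds inverted repeats of the unit nGAAn.

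Total counts lay between 12959087 and 17448328 in A-line HET and were 17507813 in A-line HOM, against 20324529 to 29436407 in the other groups. Levels are given as CPM, that is, counts brought to one library size with edgeR's TMM factors. A gene was called where its adjusted p was under 0.05 in edgeR's quasi-likelihood test with Benjamini-Hochberg adjustment over all 17588 genes, and log2 fold changes are given ± SE. The 10 cardiomyocyte markers were detected in every group, with sums of 133753 to 169524 CPM, so the libraries held heart muscle. Ttn made up most of each sum, which does not tell ventricle from atrium. Transcripts of atrial muscle were present in WT replicate 2, G-line HOM replicate 1 and A-line HET replicate 3 (Myl7 at 524, 45.8 and 240.1 CPM).

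Stretches of the promoters are shown first because heat shock factor sites are the feature that several of these genes are known to share. RefSeq windows (GRCm38.p6) of 250 bases before to 50 bases after a start site were matched by symbol for 6 of the 8 genes, in 7 windows, 2 of them of Hspb6. The head-to-head pair of units, GAANNTTC, which reads the same on both strands, was found in 5 of the 6 genes, Hspb1, Hspb3, Hspb6, Hspb8 and Bag3, and was held by 7.86% of 32851 windows of this length. The form GAAGTTTC recurred in 4 of them. Capitals below mark each match, and in Hspb6 also a TATAAA box. The stretches, written 5′ to 3′ on the strand of the gene, are Hspb1 at chr5:135887794-135887918 (plus strand), Hspb3 at chr13:113663882-113663911 (minus), Hspb6 at its second start at chr7:30553176-30553300 (plus), Hspb8 at chr5:116422844-116422873 (minus) and Bag3 at chr7:128523603-128523632 (plus).
Hspb1: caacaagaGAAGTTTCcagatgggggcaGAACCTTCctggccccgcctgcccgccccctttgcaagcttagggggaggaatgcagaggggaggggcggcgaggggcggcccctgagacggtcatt
Hspb3: ctccccgaatgGAATTTTCaggcagaggga
Hspb6: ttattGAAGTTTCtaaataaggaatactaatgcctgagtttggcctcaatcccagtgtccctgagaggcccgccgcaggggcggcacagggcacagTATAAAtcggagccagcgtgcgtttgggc
Hspb8: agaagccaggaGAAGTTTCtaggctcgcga
Bag3: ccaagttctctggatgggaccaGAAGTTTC

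Hspb1 held 2 matches and the others 1 each. Neither form was in the window of Hspb7. The tail-to-tail pair, TTCNNGAA, was in none of the 7 windows and in 8.52% of all windows, and the CArG box of serum response factor was in none of the 7 and in 1.63%. TATAAA was in the windows of Hspb6 and Hspb3 and in 13.6% of all. CATTCC, the core of sites for TEAD factors, was in those of Hspb7 and Hspb1 and in 14.7% of all. A match of letters does not show that a factor binds there.

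The 8 genes differed widely in abundance per length. In WT the mean CPM per kilobase of the median coding transcript (GENCODE M21) was 871 for Cryab, 349 for Hspb7, 150.04 for Hspb8 and 132 for Hspb6. It was 64.9 for Hspb1, 30.8 for Bag3, 8.53 for Hspb3 and 6.998 for Hspb2. The order of the genes was the same in all 5 groups. The related genes Cryaa, Hspb9 and Odf1, whose proteins belong to lens and testis, did not pass the filter: Cryaa had no count in any library, Hspb9 stayed at or below 0.32 CPM and Odf1 at or below 0.13 CPM. Each level below is for the gene as a whole, in CPM.

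**Figure D1:**
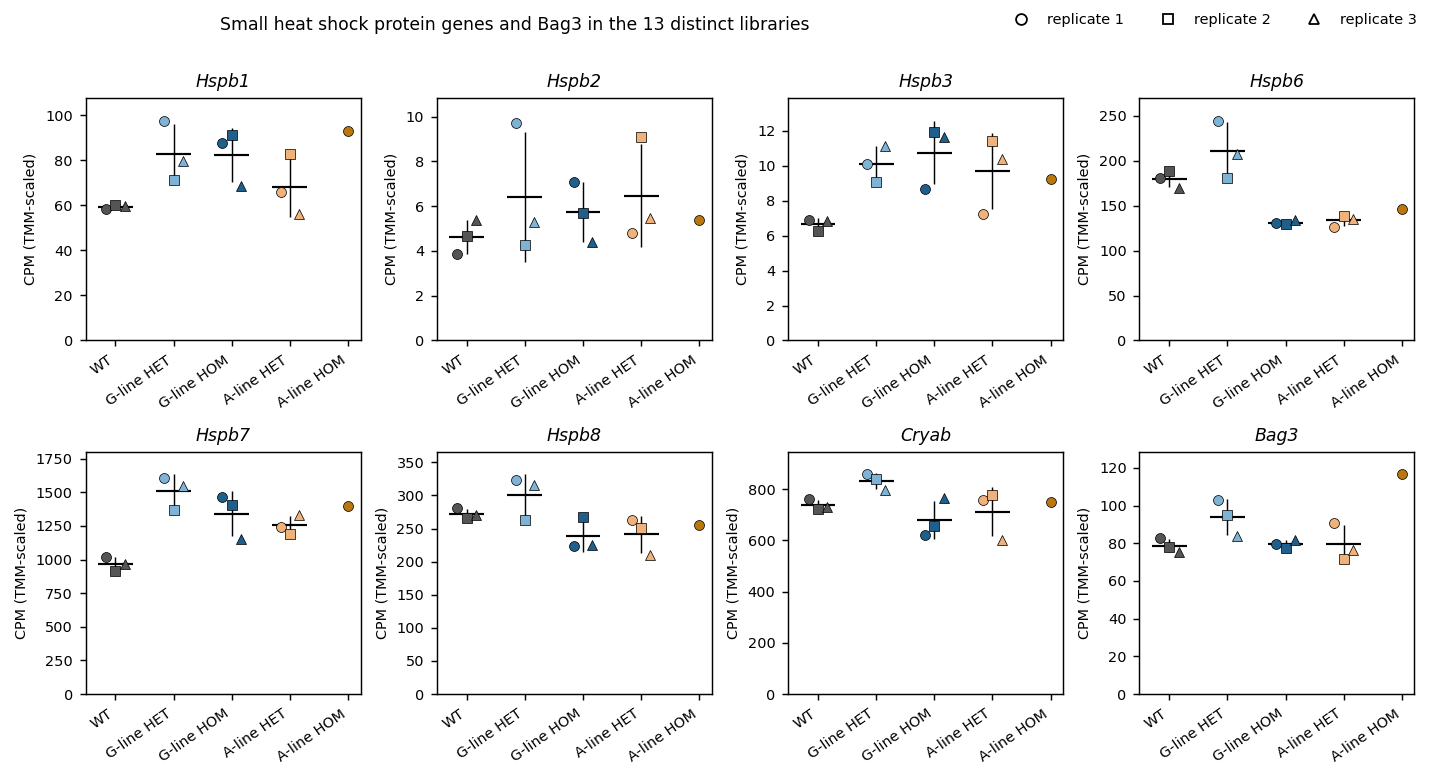
CPM (TMM-scaled, linear axis from 0) of each of the 8 genes in the 13 distinct libraries, by group, with a marker shape for each replicate number and a horizontal bar and vertical line for mean ± SD of the 3 libraries of a group. A-line HOM is 1 library and has no bar. Hspb7 lies above WT in every mutant library (1155 to 1609.6 against 917 to 1019.97 CPM). Hspb6 lies below WT in all G-line HOM and A-line HET libraries and in the A-line HOM library.

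The 4 comparisons with WT share its 3 libraries. In G-line HOM against WT 3 of the 8 genes rose (Hspb1, Hspb3 and Hspb7) and 1 fell (Hspb6), where 26.4% of all tested genes were called, 13.1% higher and 13.3% lower. In G-line HET against WT 2 rose (Hspb3 and Hspb7), at a background of 7.52% (3.97% higher and 3.54% lower). In A-line HET against WT Hspb7 rose and Hspb6 fell, at a background of 7.96% (3.99% higher and 3.97% lower). In the A-line HOM library against WT only Bag3 was called, and it rose, at a background of 4.68% (2.82% higher and 1.86% lower). The median log2 fold change of the 8 genes was 0.16 in G-line HOM, 0.36 in G-line HET, 0.11 in A-line HET and 0.34 in A-line HOM, against 0.01, -0.01, 0.02 and -0.01 over all genes. Between G-line HOM and G-line HET 1 gene, Hspb6, was called, lower in G-line HOM, at a background of 14.6% (6.22% higher and 8.42% lower). None of the 8 was called by edgeR between A-line HOM and A-line HET, where 0.0227% of genes were called, and DESeq2 called none either. None was called by edgeR between A-line HOM and G-line HOM, a comparison added after values had been seen, where 0.0398% of genes were called. DESeq2 called 1 there (Bag3).

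These counts rest on the naming of the repeated pair. With it counted as A-line HOM, or left out, none of the 8 genes was called in any of the 4 comparisons with WT, and G-line HOM against G-line HET kept its call of Hspb6. Both treatments leave WT replicate 1 alone as WT, so a lost call there does not show that a difference is absent. Over all alternatives the log2 value in G-line HOM against WT stayed at or above 0.37 for Hspb7 and at or below -0.41 for Hspb6. Bag3 in A-line HOM against WT went as low as 0.12. The values per gene below use the pair as WT.

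**Figure D2:**
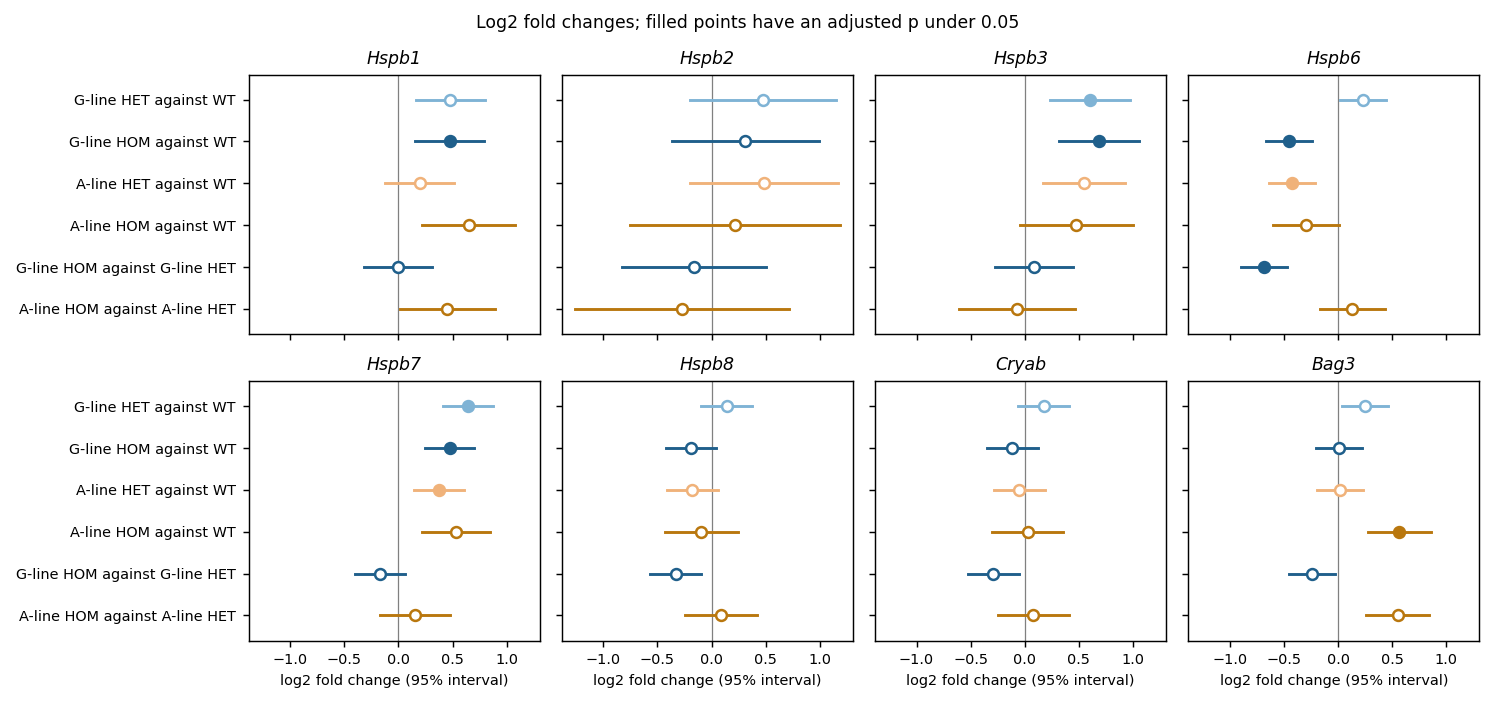
Log2 fold changes with 95% intervals from edgeR's fit for 6 comparisons (rows) in each of the 8 genes (panels), filled where the adjusted p was under 0.05. Hspb7 is filled in 3 of the 4 comparisons with WT, and Hspb6 is filled on the low side in G-line HOM and A-line HET against WT and in G-line HOM against G-line HET.

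Hspb7, the filamin C binding chaperone of heart muscle, was higher than in WT in all 10 mutant libraries. On GRCm38 it lies on chromosome 4 from 141420779 to 141425311 (plus strand). Its level was 1019.97, 917 and 963 CPM in WT replicates 1 to 3. It was 1609.6, 1372 and 1548 CPM in G-line HET, 1462, 1409 and 1155 CPM in G-line HOM, 1244, 1193 and 1328 CPM in A-line HET and 1394 CPM in A-line HOM. No mutant library reached down to the highest WT library, and the G-line HET and G-line HOM ranges overlapped. Means were 967 ± 51.3 CPM for WT (SD, n = 3), 1509.9 ± 123 for G-line HET, 1342 ± 164 for G-line HOM and 1255 ± 68.4 for A-line HET. Hspb7 rose 1.56-fold in G-line HET (log2 0.64 ± 0.11, adjusted p = 0.00255), 1.39-fold in G-line HOM (0.47 ± 0.11, adjusted p = 0.00453) and 1.30-fold in A-line HET (0.38 ± 0.11, adjusted p = 0.0441). The A-line HOM library was 1.44-fold above WT (0.53 ± 0.15, 95% interval 0.21 to 0.84, adjusted p = 0.0551), and DESeq2 called it (adjusted p = 0.0095). The call in A-line HET was lost without WT replicate 1, 2 or 3 (adjusted p = 0.0866, 0.123 and 0.141) and without A-line HET replicate 2 or 3 (0.0801 and 0.143). Among the mutant groups, G-line HET, A-line HOM, G-line HOM and A-line HET in falling order of the mean, none was called in the 4 pairs compared, which did not include A-line HOM with G-line HET or A-line HET with G-line HOM. The log2 fold changes were -0.17 ± 0.11 for G-line HOM against G-line HET (adjusted p = 0.310) and -0.27 ± 0.11 for A-line HET against G-line HET (adjusted p = 0.315).

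Hspb6 (Hsp20), the kinase-regulated small heat shock protein, was called lower than WT in 2 groups. It lies on chromosome 7 from 30552178 to 30555443 (plus strand, GRCm38). WT libraries held 180.8, 188.6 and 170.03 CPM. G-line HOM libraries held 131, 129 and 134 CPM and A-line HET libraries 127, 139 and 136 CPM, all below WT. The A-line HOM library held 147 CPM, also below every WT library. The G-line HET libraries held 244, 180.9 and 208 CPM, which overlapped WT. Means were 179.8 ± 9.30 CPM for WT, 211 ± 31.7 for G-line HET, 131 ± 2.46 for G-line HOM and 134 ± 6.41 for A-line HET (SD, n = 3 each). Hspb6 fell to 0.73 times the WT level in G-line HOM (log2 -0.45 ± 0.10, adjusted p = 0.00384) and to 0.744 times in A-line HET (-0.43 ± 0.10, adjusted p = 0.0178). It was not called in A-line HOM (-0.29 ± 0.14, 95% interval -0.60 to 0.01, adjusted p = 0.291) or in G-line HET (0.23 ± 0.10, adjusted p = 0.184). The call in A-line HET was lost without WT replicate 1 or 2 (adjusted p = 0.0618 and 0.057) and without A-line HET replicate 3 (0.0582).

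Hspb6 was chosen because it differs between the heterozygous lines, so that difference is given here without a test. The highest A-line HET library (139 CPM) lay below the lowest G-line HET library (180.9 CPM), the mean was 0.634 times as high, and the log2 difference was -0.66. Of the other 7 genes none was called between these lines by edgeR or DESeq2, where edgeR called 0.0284% of all genes. By edgeR 3 of the 7 had an unadjusted p under 0.05. The share of all genes at that looser threshold is not given here, so this count is no result about the 7. For 3 of the 7 (Hspb7, Hspb8 and Cryab) all A-line HET libraries lay below those of G-line HET, as they did for 8.06% of all genes. Within the G-line, Hspb6 fell to 0.622 times its heterozygous level in homozygotes (log2 -0.69 ± 0.10, adjusted p = 0.00186), lower in 3 of 3 libraries. This test and that of G-line HET against WT share the G-line HET libraries with the difference that chose the gene. The test of A-line HET against WT shares the A-line HET libraries with it. The gene shares exon bases with Proser3 on the other strand (122 bases), with Lin37 on the other strand (3 bases) and with the microRNA gene Gm38670 (77 bases) in GENCODE M21. Whether counting used strand is not given in the sources used here, so reads in those bases cannot be divided with certainty.

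Hspb6 is also expressed in smooth muscle. The summed level of 8 smooth muscle and pericyte markers was 1003 to 1150 CPM in WT and 649 to 996 CPM in G-line HOM. It was 808 to 1042 CPM in A-line HET, 878 to 978 CPM in G-line HET and 782 CPM in A-line HOM. Of the 7 that could be tested, 3 fell in G-line HOM and 1 in G-line HET; Tagln, the 8th, was at or below 0.114 CPM in every library. The sums lay below WT in both G-line groups and in A-line HOM and overlapped WT in A-line HET. Most of each sum was Rgs5 alone, at 759, 690 and 714 CPM in WT and 519, 430 and 585 CPM in G-line HOM. Smtn (40.6 to 48.7 against 65.1 to 69.0 CPM) and Kcnj8 (25.5 to 31.0 against 38.3 to 45.2 CPM) also lay below WT there. Acta2, Cnn1, Pdgfrb and Myh11 overlapped WT, with Myh11 at 144, 25.7 and 37.5 CPM against 39.4, 118 and 30.7 CPM. The highest Myh11 value of each of these groups was in a library with atrial transcripts, G-line HOM replicate 1 and WT replicate 2. Whether the lower sum means less smooth muscle was not tested. The part of these markers in the results for Hspb6 was not tested.

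Hspb1 (Hsp25), an actin and filamin chaperone, lies on chromosome 5 from 135887919 to 135889563 (plus strand, GRCm38). Its 3 WT libraries lay close together at 58.6, 60.0 and 59.9 CPM. It stood at 97.6, 71.2 and 79.9 CPM in G-line HET and at 87.7, 91.2 and 68.8 CPM in G-line HOM, all above WT. In A-line HET it was 65.8, 82.6 and 56.1 CPM, on both sides of WT, and in A-line HOM 93.2 CPM. Means were 59.5 ± 0.793 CPM for WT, 82.9 ± 13.5 for G-line HET, 82.5 ± 12.0 for G-line HOM and 68.2 ± 13.4 for A-line HET, so the mutant libraries spread far more than the WT libraries. Hspb1 rose 1.39-fold in G-line HOM (log2 0.47 ± 0.15, adjusted p = 0.0291). It was not called in G-line HET, at a similar value (0.48 ± 0.15, adjusted p = 0.0651), or in the single A-line HOM library (0.65 ± 0.20, adjusted p = 0.0872). A-line HET gave 0.20 ± 0.15 (adjusted p = 0.488). The call in G-line HOM was lost without WT replicate 1, 2 or 3 (adjusted p = 0.0864, 0.0629 and 0.0776) and without G-line HOM replicate 1 or 2 (0.095 and 0.113), and G-line HET was called without its replicate 2 (0.58, adjusted p = 0.0478).

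Hspb3, a partner of Hspb2 in skeletal and heart muscle, was among the scarcest of the 8, with 92 to 304 counts per library. It lies on chromosome 13 from 113662896 to 113663676 (minus strand, GRCm38). WT libraries held 6.87, 6.28 and 6.84 CPM. Every mutant library was higher, with 10.1, 9.07 and 11.1 CPM in G-line HET, 8.70, 11.9 and 11.65 CPM in G-line HOM, 7.25, 11.4 and 10.4 CPM in A-line HET and 9.26 CPM in A-line HOM. Means were 6.66 ± 0.331 CPM for WT, 10.1 ± 1.04 for G-line HET, 10.8 ± 1.79 for G-line HOM and 9.68 ± 2.17 for A-line HET. Hspb3 rose 1.61-fold in G-line HOM (log2 0.69 ± 0.17, adjusted p = 0.00887) and 1.52-fold in G-line HET (0.60 ± 0.17, adjusted p = 0.0482). It was not called in A-line HET (0.55 ± 0.18, adjusted p = 0.0740), where replicate 1 lay nearest to WT and its omission gave a call (0.71, adjusted p = 0.0125), or in A-line HOM (0.47 ± 0.24, adjusted p = 0.319). The call in G-line HET did not hold without any 1 of its 6 libraries, with adjusted p between 0.0578 (without G-line HET replicate 2) and 0.161 (without G-line HET replicate 3). It was 0.128, 0.118 and 0.122 without WT replicates 1, 2 and 3 and 0.140 without G-line HET replicate 1.

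Skeletal muscle, where Hspb3 is also known, has markers that were higher in the mutant libraries too. The sum of 9 skeletal muscle markers was 1.42 to 2.88 CPM in WT. It was 27.9 to 39.5 CPM for G-line HET, 3.20 to 10.4 for G-line HOM, 34.4 to 35.4 for A-line HET, with 9.60 in the A-line HOM library. In the HET groups most of it came from the fast troponin genes Tnni2 and Tnnt3. The defining genes Myh1, Myh2, Myh4, Mylpf and Myod1 were each at or below 0.91 CPM in every library, and Myh4 and Mylpf were at 0 in all WT and all G-line HOM libraries. Between G-line HOM and G-line HET, whose marker sums did not overlap, Hspb3 differed by 0.09 ± 0.17. The part of these markers in the results for Hspb3 was not tested.

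Hspb2, the partner of Hspb3, was the least abundant per length and the most variable. WT libraries held 3.87, 4.65 and 5.38 CPM. G-line HET libraries held 9.72, 4.27 and 5.28 CPM, G-line HOM libraries 7.07, 5.70 and 4.41 CPM, A-line HET libraries 4.81, 9.10 and 5.48 CPM and the A-line HOM library 5.37 CPM. Each group overlapped WT, and in both HET groups a single library stood well above the other two. Means were 4.63 ± 0.757 CPM for WT and 6.42 ± 2.90 for G-line HET. No comparison called Hspb2; the value in G-line HOM was 0.31 ± 0.31 with a 95% interval from -0.36 to 0.99 (adjusted p = 0.513), and the interval in A-line HOM reached from -0.76 to 1.18. Hspb2 (chromosome 9, 50751078 to 50752354, minus strand) and Cryab (50751325 to 50756636, plus strand) lie head to head on GRCm38 and share 252 exon bases, so some of the few Hspb2 counts may belong to its abundant neighbour. Over the 13 libraries the levels of Hspb2 and Cryab had a Pearson r of 0.04.

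Cryab and Hspb8, the most abundant of the 8 genes per length and the binding partner of Bag3, were not called in any comparison with WT. Cryab stood at 761, 721 and 729.9 CPM in WT and at 859.7, 839 and 797 CPM in G-line HET, which was above every WT library. It stood at 623, 654 and 765 CPM in G-line HOM, at 757, 776 and 603 CPM in A-line HET and at 752 CPM in A-line HOM, where the ranges overlapped WT or fell within it. Means were 737 ± 20.9 CPM for WT, 832 ± 31.9 for G-line HET, 681 ± 74.5 for G-line HOM and 712 ± 94.97 for A-line HET. Its log2 fold changes against WT were 0.17 ± 0.11 in G-line HET (95% interval -0.06 to 0.41, adjusted p = 0.378), -0.12 ± 0.11 in G-line HOM (-0.35 to 0.12, adjusted p = 0.483), -0.05 ± 0.11 in A-line HET (-0.28 to 0.18, adjusted p = 0.842) and 0.03 ± 0.15 in A-line HOM (-0.30 to 0.36, adjusted p = 0.951).

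Hspb8 (chromosome 5, 116408491 to 116422864, minus strand, GRCm38) stood at 281, 266 and 270.2 CPM in WT. G-line HET had 323, 263 and 315 CPM, G-line HOM 224, 267 and 225 CPM, A-line HET 262, 251 and 209.6 CPM and A-line HOM 255 CPM. Only A-line HET and the A-line HOM library lay wholly below WT. The log2 fold changes against WT were 0.14 ± 0.11 in G-line HET (adjusted p = 0.5005), -0.19 ± 0.11 in G-line HOM (95% interval -0.43 to 0.04, adjusted p = 0.227), -0.18 ± 0.11 in A-line HET (-0.41 to 0.06, adjusted p = 0.378) and -0.09 ± 0.15 in A-line HOM (adjusted p = 0.811). Both genes had lower values in G-line HOM than in G-line HET without a call: -0.33 ± 0.11 for Hspb8 (adjusted p = 0.0566) and -0.29 ± 0.11 for Cryab (adjusted p = 0.0875). Hspb8 was called there by DESeq2 (adjusted p = 0.0330) and without G-line HET replicate 2 (-0.42, adjusted p = 0.0442), and Cryab without G-line HOM replicate 3 (-0.38, adjusted p = 0.0334).

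Bag3, the co-chaperone that links small heat shock proteins to Hsp70, was called against WT only in the single A-line HOM library. It lies on chromosome 7 from 128523616 to 128546981 (plus strand, GRCm38). WT libraries held 82.8, 78.2 and 75.5 CPM, G-line HOM libraries 79.5, 77.4 and 81.5 CPM and A-line HET libraries 91.0, 71.8 and 76.4 CPM. G-line HET libraries held 103, 94.9 and 84.0 CPM, above WT in every case, and the A-line HOM library held 117 CPM, the highest of all 13. Means were 78.8 ± 3.67 CPM for WT, 93.9 ± 9.44 for G-line HET, 79.5 ± 2.03 for G-line HOM and 79.7 ± 10.05 for A-line HET. Bag3 rose 1.48-fold in the A-line HOM library against WT (log2 0.57 ± 0.14, 95% interval 0.28 to 0.86, adjusted p = 0.0301). That call rested on 1 library and was lost without WT replicate 1, 2 or 3 (adjusted p = 0.053, 0.0568 and 0.0934). With the repeated pair counted as A-line HOM the value was 0.12 (adjusted p = 0.986). Bag3 was 0.25 ± 0.10 in G-line HET (adjusted p = 0.141). In G-line HOM and A-line HET it was 0.01 ± 0.10 and 0.02 ± 0.10, with 95% intervals of -0.20 to 0.22 and -0.20 to 0.23. Against the G-line HOM libraries the A-line HOM library was 0.56 ± 0.14 higher (95% interval 0.26 to 0.85, adjusted p = 0.165), and against A-line HET it was 0.55 ± 0.14 higher (adjusted p = 0.448).

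Some of the libraries that were high in Bag3 were also high in the heat-inducible genes Dnajb1 and Hspa1a, chosen after their values were seen. The Hsp40 gene Dnajb1 stood at 39.7 CPM in A-line HOM and at 32.2 CPM in A-line HET replicate 1, against 10.6 and 13.1 CPM in the other two A-line HET libraries and 11.1 to 14.0 CPM in WT. It was 21.7, 19.2 and 17.1 CPM in G-line HET and 13.01, 13.9 and 17.4 CPM in G-line HOM. Hspa1a, an inducible Hsp70 gene, stood at 10.5 CPM in A-line HOM, 6.93 CPM in A-line HET replicate 1 and 3.25 CPM in G-line HET replicate 1, against 0.208 to 1.06 CPM in WT. Its near-identical copy Hspa1b makes the division of its reads uncertain. Hspa1a rose in A-line HOM against WT (log2 4.01 ± 0.94, adjusted p = 0.0392), and this was lost without WT replicate 1, 2 or 3 (adjusted p = 0.106, 0.053 and 0.106). The other G-line libraries, G-line HET replicate 2 among them, held 0.97 to 1.55 CPM of Hspa1a. Bag3 itself was highest in A-line HOM, G-line HET replicate 1, G-line HET replicate 2 and A-line HET replicate 1, in that order. Other heat shock response genes went both ways in the 1 A-line HOM library against WT. Dnajb4 was higher (188 against 115 to 118 CPM), and St13 was lower (73.2 against 98.7 to 108 CPM). The part of the pattern of Dnajb1 and Hspa1a in the result for Bag3 was not tested.

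**Figure D3:**
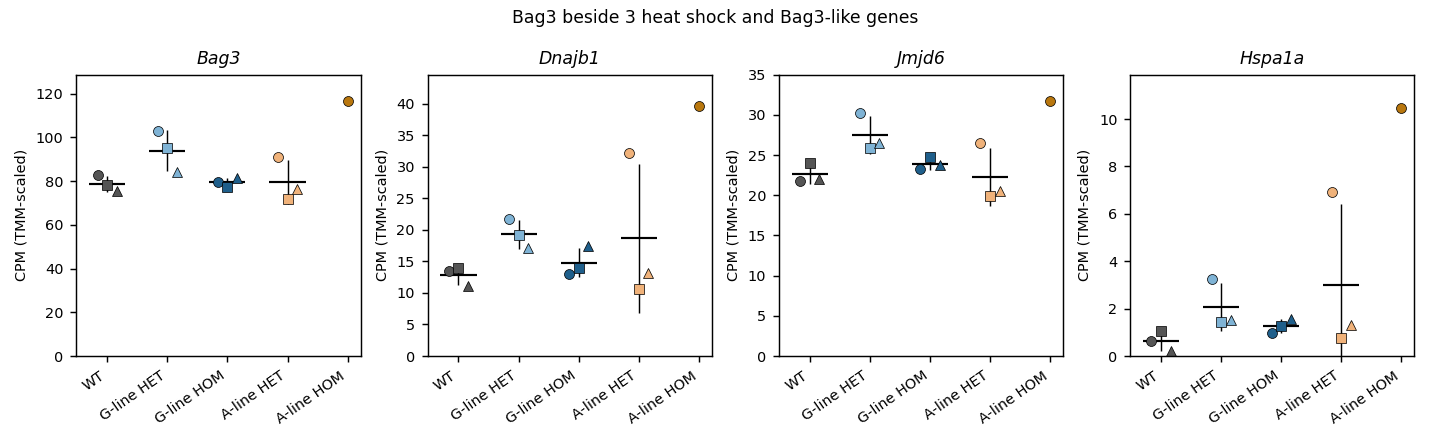
CPM (TMM-scaled, linear axes from 0) of Bag3, the heat-inducible genes Dnajb1 and Hspa1a, and Jmjd6, in the 13 libraries by group, with mean ± SD bars for groups of 3 and marker shapes for replicate numbers as in the plot of levels. The A-line HOM library is highest in all 4 panels (117, 39.7, 10.5 and 31.8 CPM), and A-line HET replicate 1 stands above replicates 2 and 3.

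Genes that vary most like a member were found by the Pearson r of log2 CPM over the 13 libraries among 8087 genes of at least 10 CPM, as a description, since libraries of a group share their genotype. For Bag3 these were Jmjd6 (r = 0.90), Dnajb1 (0.89) and Mbd1 (0.87). For Hspb6 they were Dnajc11 (0.91), Dynll2 (0.89) and Ywhag (0.88), and for Hspb7 C1qtnf6 (0.94), Ppm1j (0.93) and Dok7 (0.92). Mean C1qtnf6 was 8.03 CPM in WT and 16.7 to 23.4 CPM in the mutant groups. Among the 8 genes themselves the highest values were 0.79 for Hspb6 and Hspb8, 0.74 for Hspb1 and Hspb7, 0.69 for Hspb8 and Cryab, 0.66 for Hspb3 and Hspb7 and 0.64 for Hspb1 and Hspb2. Hspb6 and Hspb7 had an r of 0.06 and Hspb3 and Hspb6 of -0.19.

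Counts in the lists below stand beside the shares of all genes called, which were 26.4% in G-line HOM, 4.68% in A-line HOM, 7.52% in G-line HET and 7.96% in A-line HET against WT, and 14.6% in G-line HOM against G-line HET. Counts near these shares are no result about a list. With the repeated pair counted as A-line HOM, all calls in A-line HOM and A-line HET against WT were lost, those named below among them. In G-line HET and G-line HOM against WT, Nrap passed under 15 and 17 of 18 alternatives and Hspa1l under 17 in each.

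Of 26 listed partners of Bag3 and genes of chaperone-assisted selective autophagy, all tested, 6 rose and 2 fell in G-line HOM against WT, with a median log2 fold change of 0.12. In A-line HOM 6 rose and 2 fell (median 0.17), in A-line HET 4 rose and 1 fell (0.15) and in G-line HET 2 rose and 1 fell (0.23). Hspa1l, a constitutive Hsp70 gene best known from testis, rose in all 4 groups, from 4.28 ± 0.507 CPM in WT to 15.3 ± 3.30 in G-line HOM, 13.9 ± 1.83 in G-line HET, 11.3 ± 1.42 in A-line HET and 12.5 in A-line HOM (adjusted p = 1.39e-05, 9.51e-05, 0.000444 and 0.00244). Sqstm1, the autophagy receptor p62, rose in G-line HOM (log2 0.65 ± 0.09, adjusted p = 0.000226) and A-line HOM (0.72 ± 0.13, adjusted p = 0.00629). In A-line HET it was called (0.43, adjusted p = 0.0127), but not without WT replicate 1 or A-line HET replicate 3 (0.0571 and 0.0666). Gabarapl1, an autophagosome membrane protein gene, rose in G-line HOM (0.68 ± 0.09, adjusted p = 0.000104). Synpo2l, a Z-disc relative of the Bag3 partner synaptopodin-2, had 79.7 ± 3.80 CPM in WT and rose to 364 ± 43.4 in G-line HOM (2.19 ± 0.30, adjusted p = 0.000492). It was called in A-line HET as well (1.17, adjusted p = 0.0357), but not without WT replicate 1, 2 or 3 or A-line HET replicate 2 or 3 (0.0828 to 0.123), and in A-line HOM (1.89, adjusted p = 0.0211), but not without WT replicate 1 or 3 (0.0553 and 0.0654). Stx7, a syntaxin of late endosomes, fell in A-line HET (-0.47 ± 0.09, adjusted p = 0.00604) and A-line HOM (-0.67 ± 0.13, adjusted p = 0.0108). Its call in G-line HET (-0.35, adjusted p = 0.0298) was lost without WT replicate 1 or 3 or any 1 of the G-line HET libraries (0.0631 to 0.132).

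Within the G-line, 4 of these 26 genes were higher and 3 lower in homozygotes than in heterozygotes. Gabarapl1 was among the higher ones (log2 0.43, adjusted p = 0.00709), and its call passed under 17 of 18 alternatives. The lower ones were Synpo2 itself (-0.66 ± 0.11, adjusted p = 0.00288), Map1lc3a, an LC3 gene (-0.56 ± 0.11, adjusted p = 0.00467), and Ywhag, a 14-3-3 gene (-0.47 ± 0.10, adjusted p = 0.00891).

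The list of 26 heat shock response genes was mostly cytosolic but held Hspd1 and Hspe1, whose proteins are mitochondrial. Of the 26, 3 rose and 4 fell in G-line HOM against WT (median -0.05). In A-line HOM 3 rose and 1 fell (0.16), in G-line HET 1 rose (0.13) and in A-line HET 1 fell (-0.01). Between G-line HOM and G-line HET 7 were called, all lower (median -0.30, against 0.04 over all genes), where 8.42% of all genes were called lower. Fkbp4, an Hsp90 co-chaperone, fell from 272 ± 16.7 CPM in WT to 112 ± 25.5 in G-line HOM (-1.28 ± 0.17, adjusted p = 0.000136) and was also lower there than in G-line HET (-0.97 ± 0.17, adjusted p = 0.00334). Hsp90aa1, the inducible Hsp90 gene, rose in G-line HOM (0.69 ± 0.13, adjusted p = 0.00128). Dnajb4, an Hsp40 gene, rose in G-line HET (0.67 ± 0.10, adjusted p = 0.00091), A-line HOM (0.69 ± 0.13, adjusted p = 0.00895) and G-line HOM (0.43 ± 0.10, adjusted p = 0.00425). Dnajb5, another, was lower in G-line HOM than in G-line HET (-0.79 ± 0.13, adjusted p = 0.00242).

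The last long list held 22 genes of the desmin network and the Z-disc. In G-line HOM 10 of them rose and 3 fell (median 0.46), where 13.1% of all genes rose and 13.3% fell, 8 rose in G-line HET (0.34), 3 rose and 1 fell in A-line HET (0.12) and 2 rose in A-line HOM (0.28). Nrap, which anchors thin filaments at the ends of myofibrils, rose in each group, by 1.05 ± 0.12 in G-line HOM, 0.82 ± 0.12 in G-line HET, 0.80 ± 0.12 in A-line HET and 1.22 ± 0.16 in A-line HOM (adjusted p = 4.21e-05, 0.00091, 0.00113 and 0.000723). Flnc, filamin C, the client that Hspb1, Hspb7 and Bag3 share, rose in G-line HET from 449.6 ± 8.82 to 819.8 ± 209.6 CPM (0.87 ± 0.17, adjusted p = 0.00708) and in G-line HOM to 796.7 ± 166.4 CPM (0.83 ± 0.17, adjusted p = 0.00258). These calls passed under 15 of 18 alternatives in G-line HET and 16 of 18 in G-line HOM, with lowest log2 values of 0.64 and 0.65. The call in G-line HOM was lost with the repeated pair counted as A-line HOM or left out. Flnc was called in A-line HET (0.62, adjusted p = 0.038) and A-line HOM (0.93, adjusted p = 0.0334) too, but not without WT replicate 1, 2 or 3 (0.0644 to 0.128) or, for A-line HET, its replicate 2 or 3 (0.136 and 0.0947). Xirp2, an actin-binding Z-disc protein gene, rose in G-line HOM (1.31 ± 0.17, adjusted p = 9.3e-05).

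Of the 5 BAG genes other than Bag3, 1 rose in G-line HOM and 1 fell in A-line HET. Of 14 regulators named for these genes in the heart, 4 rose and 1 fell in G-line HOM, 4 rose in A-line HOM and 2 rose in each HET group. The 7 fibroblast markers, whose sum was 936 to 1638 CPM in WT and 2349 to 3367 CPM in G-line HOM, included 5 that rose in G-line HOM, and their part in the lists' changes there was not tested. Of the 10 cardiomyocyte markers 5 fell and 1 rose in G-line HOM.

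**Figure D4:**
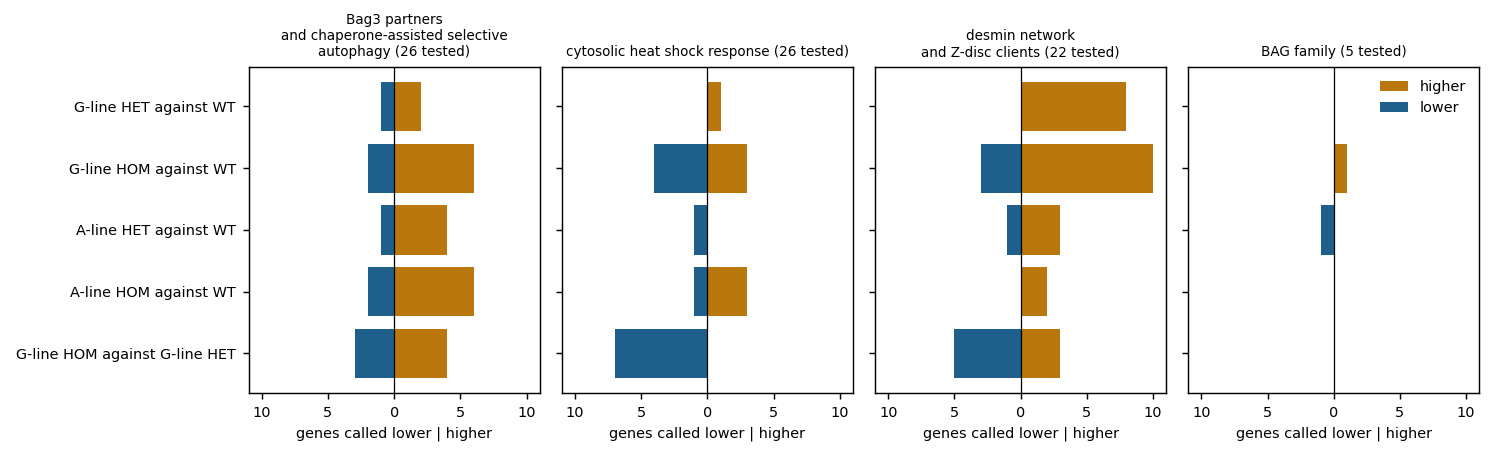
Number of genes called lower (left of 0) and higher (right of 0) at an adjusted p under 0.05 in 4 lists (panels) and 5 comparisons. G-line HOM against WT has 10 higher and 3 lower in the desmin and Z-disc list, and G-line HOM against G-line HET has 7 lower in the heat shock list.

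The calls for single members were also computed under other processing. Hspb6 in G-line HOM against G-line HET passed under all 18 alternatives, with log2 values from -0.78 to -0.57. That comparison uses the G-line HET libraries whose level helped to choose the gene, so its steadiness is no independent support. The calls of Hspb3, Hspb6 and Hspb7 in G-line HOM against WT and of Hspb7 in G-line HET against WT passed under 16 of 18, and were lost only where the repeated pair was counted as A-line HOM or left out. No called value changed its sign.

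**Figure D5:**
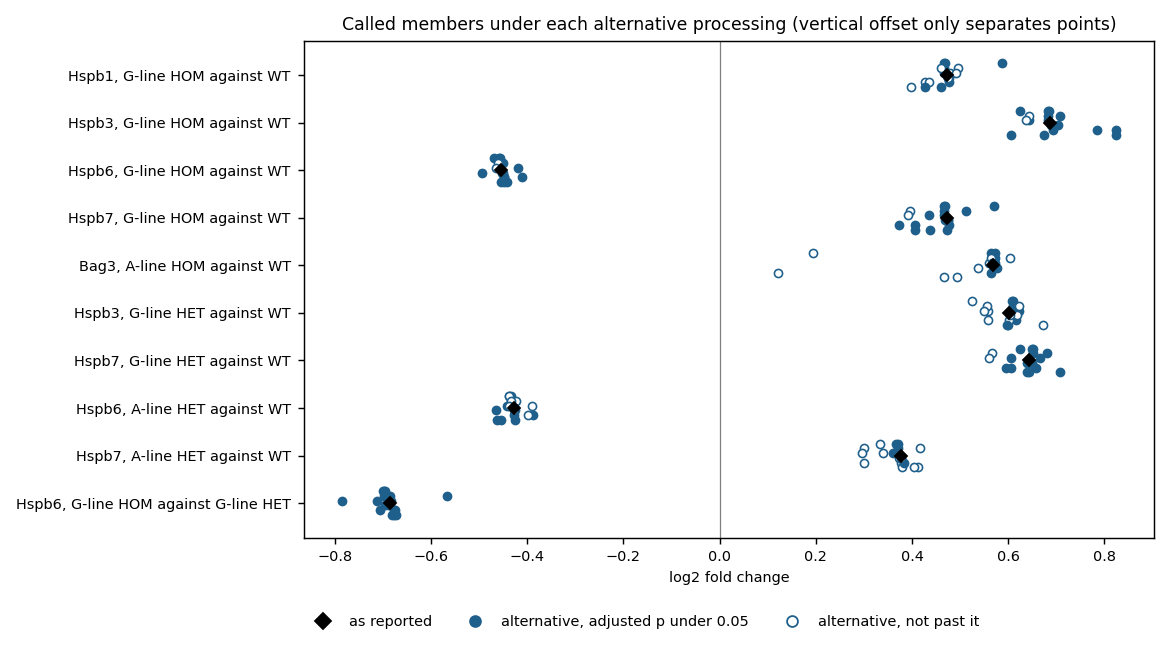
Log2 fold change (horizontal axis) of the 10 called comparisons of single members, as reported (diamonds) and under each alternative processing or omitted library (circles, filled where the adjusted p stayed under 0.05; vertical offset only separates points). The difference of Hspb6 between the heterozygous lines, which chose the gene, is not plotted. Hspb6 in G-line HOM against G-line HET, which shares the G-line HET libraries with that difference, is filled throughout. Bag3 in A-line HOM spreads from 0.12 to 0.60.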

How the data were processed

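Per the labels' protocols, left ventricle RNA was extracted with TRIzol, DNase-treated and made into Illumina TruSeq total RNA Gold libraries. Per the submitters' processing notes, bcl2fastq 2.20.0.422, Trimmomatic 0.39 and STAR 2.7.4a were used with GRCm39. Raw, whole-number counts for each symbol were deposited by the authors; the sources used here name no counting program, annotation or strand setting. Coordinates and lengths come from GENCODE M21 on GRCm38, matched by symbol, and promoters from RefSeq on GRCm38.p6; no coordinate was carried between builds.

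The genes and all lists were chosen with earlier results of these data known. The treatment of the repeated pair was likewise chosen after the data were seen, in place of the 15 libraries of the design. Genes needed 0.422 CPM (10 counts in the median library) in at least 3 libraries and 15 counts in all. One robust quasi-likelihood model in edgeR 4.0.16 (R 4.3.3) with a mean per group was fitted to the deposited counts of the 13 libraries. It had 8 residual degrees of freedom and a common coefficient of biological variation of 17.1%. The same procedure was also run on simulated counts drawn with the gene means and spread of that fit. For the lone A-line HOM library the spread of the other groups was assumed. P-values are two-sided. Group and replicate came from sample titles. Of each other list at most the 4 called genes of smallest adjusted p per comparison could be named, with the 3 genes most like Hspb6, Hspb7 and Bag3; Dnajb1, Hspa1a in single libraries, Flnc in G-line HOM, Tnni2, Tnnt3 and Tagln were chosen after their values were seen. Alternatives were DESeq2 1.42.0, RLE size factors, 2 other filters, only the groups compared, a replicate block, scaling without Xist, Y-linked, mitochondrial and ribosomal RNA genes, omission of each library, 3 other treatments of the repeated pair and omission of libraries with high Myl7 or Arntl.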

Additional observations from a re-analysis of the deposited data

Results flagged for a closer look

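The levels of Hspb6 in the heterozygous lines lay on opposite sides of the WT mean. Every A-line HET library lay below the WT mean and every G-line HET library above it, and the log2 difference between the lines was -0.658. This difference was not tested, since the gene was chosen for it, and Hspb6 was not called in G-line HET against WT, whose libraries overlapped. Hspb6 also differed between the homozygous and heterozygous states of the G-line, with a log2 fold change of -0.685 (edgeR quasi-likelihood test, adjusted p = 0.00186), lower in 3 of 3 libraries; the WT libraries lay below 2 of the 3 G-line HET libraries and above all 3 G-line HOM libraries. The test within the G-line shares the G-line HET libraries with the difference that chose the gene. No group had the 4 libraries needed to test a single library against its group.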

How the results depend on the processing

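The 8 genes had 1080 log2 fold changes under alternatives: 961 kept direction and side of the threshold (for the untested difference of Hspb6 between the HET groups, moved by less than the spread between replicates), 55 lost a call, 18 gained one and 46 changed sign, none of them a called value. The naming of the repeated pair mattered most, and with the pair counted as A-line HOM or left out WT was replicate 1 alone. With it counted as A-line HOM, members called fell from 4 to 0 in G-line HOM against WT, from 1 to 0 in A-line HOM and from 2 to 0 in G-line HET and in A-line HET. With the pair left out these 4 counts were also 0, and with it in both groups they were 0 in A-line HOM, 1 in G-line HET, 0 in A-line HET and 1, from 0, in A-line HOM against G-line HOM. A-line HOM against WT had 2 members with DESeq2, without a filter and with at least 1 CPM, 3 with only the groups compared and without high-Arntl libraries, and 0 without high-Myl7 libraries. G-line HOM against G-line HET had 2 with DESeq2 and without a filter, and A-line HOM against G-line HOM had 1 with DESeq2. G-line HET against WT had 1 without high-Myl7 libraries. A-line HET against WT had 1 with only its groups and without high-Arntl libraries and 0 without high-Myl7 libraries. Leaving out single libraries gave 3 to 4 members called in G-line HOM against WT, 0 to 0 in A-line HOM, 1 to 2 in G-line HET, 0 to 3 in A-line HET and 1 to 2 in G-line HOM against G-line HET. The cause of these changes was not tested.

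Same-numbered libraries did not deviate together (15 pairs, correlations -0.27 to 0.15, every one needed above 0.1; 2 of 15 libraries correlated best with their own number), so the numbers name libraries only. With the replicate number as a block, members called were 0 in A-line HOM, 1 in G-line HET and 1 in A-line HET against WT. All genes called under the block fell from 823 to 504 in A-line HOM against WT, from 4 to 0 in A-line HOM against A-line HET, from 5 to 1 between the HET groups and from 7 to 1 between the HOM groups. Under the block Hspb3 changed sign to 0.095 in A-line HOM against A-line HET and Hspb7 to -0.016 in A-line HOM against G-line HOM.

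Genes called among all tested were 4640 in G-line HOM, 823 in A-line HOM, 1322 in G-line HET and 1400 in A-line HET against WT, 2575 in G-line HOM against G-line HET, 4 in A-line HOM against A-line HET, 5 in A-line HET against G-line HET and 7 in A-line HOM against G-line HOM. In that order they became 1151, 0, 5, 0, 1251, 0, 1 and 1701 with the repeated pair as A-line HOM. With it left out the first 4 were 2226, 102, 236 and 165 and the last 3 were 0, 3 and 0. With it in both groups A-line HOM and A-line HET had 0 and G-line HET 439 against WT, and the last 3 were 0, 1 and 2285. The last 3 were 25, 218 and 183 with DESeq2 and 13, 69 and 52 without a filter. At least 1 CPM gave 2 between the HET groups. Only the groups compared gave 1451 in A-line HOM, 2164 in G-line HET and 1 between the HOM groups. Without high-Myl7 libraries A-line HET against WT had 651, G-line HOM against G-line HET 1558, the HET groups 3 and the HOM groups 2. Without high-Arntl libraries these were 834, 1531, 0 and 2, with 2 in A-line HOM against A-line HET. Leaving out single libraries gave 398 to 616 in A-line HOM, 515 to 1155 in G-line HET and 622 to 2038 in A-line HET against WT, 1168 to 2796 within the G-line, 0 to 4 within the A-line, 0 to 607 between the HET groups and 0 to 153 between the HOM groups.

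Sign changes, none of a called value, were as follows. With the pair as A-line HOM or left out, Bag3 was -0.058 and -0.063 in G-line HOM and -0.055 and -0.058 in A-line HET against WT, and Cryab -0.051 and -0.022 in A-line HOM against WT, with -0.0057 when the pair was in both. With the pair as A-line HOM or in both, Hspb7 was -0.20 and -0.20 against A-line HET and -0.30 and -0.30 against G-line HOM, and Hspb1 -0.22 and -0.22 against G-line HOM. Without high-Myl7 libraries Cryab was 0.044 in A-line HET against WT, Hspb8 -0.0083 and Cryab -0.029 in A-line HOM against A-line HET, and Hspb2 0.086 in A-line HOM against G-line HOM. Without high-Arntl libraries Hspb2 was 0.066 and Hspb3 0.069 in A-line HOM against A-line HET, and Hspb2 was -0.32 between the HET groups and 0.086 between the HOM groups. Hspb2 between the HET groups, 0.01 as reported, was -0.0037 with DESeq2, -0.0024 with RLE, -0.027 without a filter and -0.0053 without mitochondrial and ribosomal RNA. Without single libraries Bag3 ranged from -0.019 to 0.048 in G-line HOM and from -0.088 to 0.086 in A-line HET against WT, and Cryab from -0.12 to 0.057 in A-line HET against WT. In G-line HOM against G-line HET Hspb1 ranged from -0.10 to 0.13 and Hspb2 from -0.38 to 0.27. In A-line HOM against A-line HET Hspb2 ranged from -0.44 to 0.058, Hspb3 from -0.24 to 0.061, Hspb8 from -0.0086 to 0.15 and Cryab from -0.030 to 0.14. Between the HET groups Hspb2 ranged from -0.32 to 0.44 and Hspb3 from -0.19 to 0.11, and between the HOM groups Hspb2 from -0.25 to 0.086 and Hspb7 from -0.042 to 0.12. Hspb2 had the fewest counts of the 8, 61 to 257 per library. RLE and DESeq2 scaling, and omission of mitochondrial and ribosomal RNA, Xist and Y-linked genes, moved no log2 fold change of the 8 genes by more than 0.0181.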
